A study of Mus musculus with 15 samples.

Results

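The late phase of the response to an unfolded protein was examined by comparing cells collected 405 min after removal of the stabilizing ligand Shield-1 (S1) with cells collected 45 min after its removal. All samples titled with these times were used, 4 samples at 405 min and 3 at 45 min, which make 7 of the 15 samples in the series. The other samples were 5 controls in which S1 was kept (time 0) and 3 samples at 135 min. They entered the fit to estimate the spread, and their levels are given below only to place a transcript in time.

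The cells were NIH3T3 mouse fibroblasts stably expressing DD-sfGFP, in which a destabilizing domain (DD) derived from a mutant FKBP12 is joined to superfolder GFP. According to the study's methods the cells were sorted for high GFP and were always grown with S1, which was then removed by adding purified FKBP(F36V) protein to the medium. Both groups therefore carried the same transgene and received the same FKBP protein. They differed in the time since it was added, so time without S1, time with the FKBP protein and time in culture cannot be told apart. mRNA was purified with oligo(dT) and sequenced, and the deposited table of each sample gave a count per gene.

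A protein that fails to fold in the cytosol or nucleus is recognized by chaperones, tagged with ubiquitin, unfolded by the p97 ATPase where needed and degraded by the proteasome. Cells can raise the supply of these parts through several transcription factors. HSF1 drives chaperone genes, NRF2 drives genes of glutathione, thioredoxin and NADPH metabolism, NRF1 drives proteasome subunit genes when proteasome capacity is short, and p53 drives Mdm2 and cell cycle inhibitors.

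Total counts of the 7 samples ranged from 9479272 (45 min, replicate 2) to 30258404 (45 min, replicate 1). The libraries formed 2 sets by the slope of log2 CPM (CPM, counts scaled to library size) against transcript GC content. Set 2 held replicate 3 at 45 min, replicates 1, 2 and 4 at 405 min and 1 control, with slopes from -0.40 to 0.01 log2 CPM per 10 points of exonic GC. Set 1 held the other samples, with slopes from -1.42 to -0.68. The widest gap between the sorted slopes (0.2785) was only just wider than the next (0.2779), so the border between the sets is not sharp. In a model with group and set, 5146 of 10276 genes differed between the sets. Since 3 of 4 samples at 405 min but 1 of 3 at 45 min were in set 2, results are given from the group model, which follows the study's methods, and, where stated, from the same model with the set as a covariate. The 8 fibroblast markers (collagens, Fn1, Vim, Pdgfra, Pdgfrb and Thy1) summed to 16217 to 16591 CPM at 45 min and 10897 to 15734 CPM at 405 min. Markers of epithelial, haematopoietic and endothelial cells summed to at most 3.91 CPM in any of the 7 samples.

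At 405 min, 195 genes were higher and 233 lower than at 45 min at an adjusted p under 0.05 (edgeR quasi-likelihood test, Benjamini-Hochberg over the 10276 genes with a count in every sample), which is 1.9% and 2.27% of the genes tested (4.17% in either direction). These genes are referred to as called. The change was at least 1 on the log2 scale for 116 of the higher and 89 of the lower genes. The covariate fit gave 394 higher (3.83%) and 434 lower (4.22%) genes, 8.06% in either direction, and these included 193 and 230 of the genes called by the group model. Regardless of any test, all 4 samples at 405 min lay above all 3 at 45 min for 929 genes (9.04%) and below them for 963 (9.37%). All 195 genes called higher and 227 of the 233 called lower were among these, so lack of overlap is no further support for a called gene. Median exonic GC content was 50% for the higher genes, 46.3% for the lower genes and 49.1% for all genes tested, and with the set as a covariate it was 47.2% and 48.7%. The counts varied with the library left out. They were lowest without replicate 1 at 45 min (76 higher, 90 lower) or replicate 2 at 45 min (84 and 73) and highest without control replicate 3 (353 and 426). All 428 called genes kept their sign in each of those 15 fits. Each list count without 1 library below is to be read beside the count over all genes, which moved with the library left out. The called genes are compared with each other below by lists of genes from textbook knowledge. Members named beyond the naming rule are those that passed the test, and were chosen after their values were seen.

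**Figure D1:**
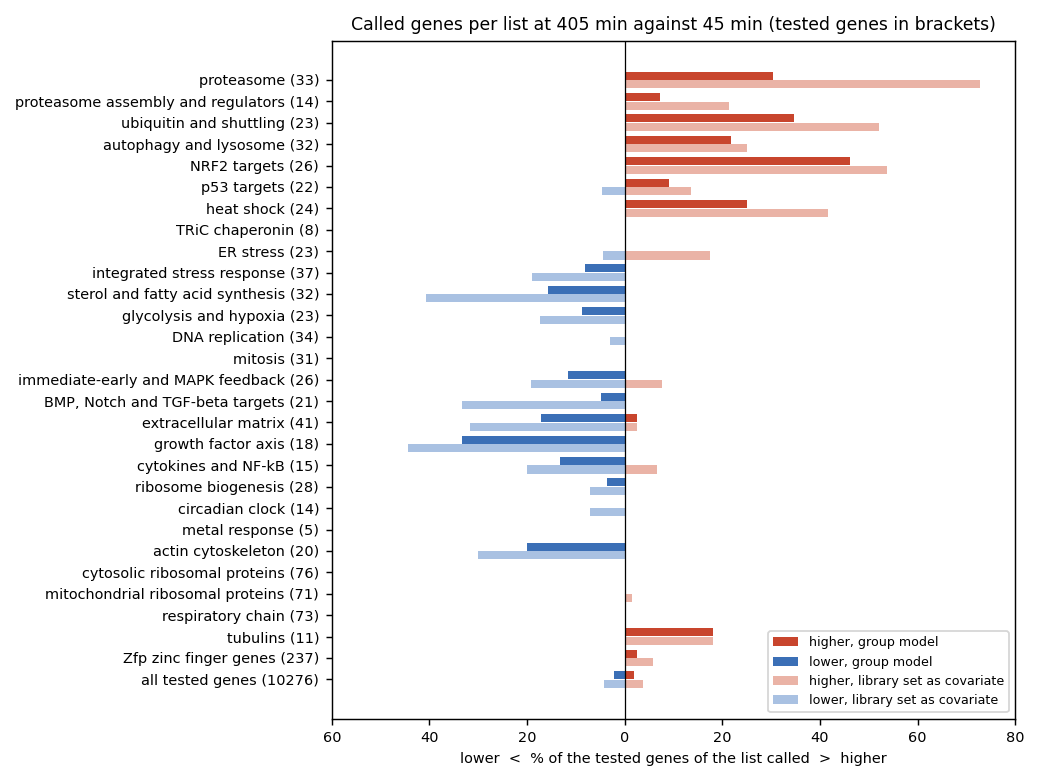
Share of the tested genes of each list that was called higher (right, red) or lower (left, blue) at 405 min than at 45 min, in the group model (dark) and with the library set as a covariate (pale). The number of tested genes is in brackets. Proteasome, ubiquitin, autophagy, NRF2 and heat shock genes were called in the upward direction, and matrix, growth factor, actin and sterol genes mostly in the downward direction, beside 1.9% and 2.27% of all tested genes.

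Of 33 proteasome subunit genes, all tested, 10 rose and none fell, against 1.9% of all genes, and the median log2 fold change was 0.74, compared with -0.01 for all tested genes. The remaining 23 did not pass, but their log2 fold changes were positive as well, from 0.14 for Shfm1 to 1.5 for Psmd3. With the set as a covariate 24 of 33 passed, against 3.83% of all genes. The median was then 0.86, and the medians within set 1 and set 2 were 0.79 and 0.90. In the alternatives without 1 library the number that passed ranged from 4 (without replicate 2 at 45 min) to 17 (without control replicate 3). Of all genes tested, 84 and 353 were higher in these 2 fits. The number of proteasome genes was 6 without replicate 4 at 405 min and 14 without control replicate 2.

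The proteasome is built from a barrel of alpha and beta rings, in which the beta subunits hold the proteolytic sites, and a regulatory cap whose ATPases (Psmc) unfold the substrate and whose other subunits (Psmd) bind and remove ubiquitin. Each layer was represented. In the alpha ring only Psma7 rose in the group model (0.90), while Psma1, Psma3 and Psma5 passed as well with the set as a covariate. In the beta ring Psmb2, Psmb3, Psmb4 and Psmb6 rose, by 1.06 to 1.54. Among the catalytic beta subunits Psmb6 had a log2 fold change of 1.16 (edgeR adjusted p = 0.0471), whereas Psmb5 (0.81, 0.169) and Psmb7 (0.26, 0.529) did not pass. The called ATPases were Psmc3 and Psmc4 and the called cap subunits Psmd2, Psmd4 (a ubiquitin receptor) and Psmd11.

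Psmb3 (chromosome 11, 97564748 to 97574814, mm9), a structural subunit of the beta ring, measured 126, 87.4 and 122 CPM at 45 min and 387, 334, 263 and 311 CPM at 405 min. The 4 late samples lay above the 3 early ones without overlap, and the lowest late value was that of replicate 3, the only 405-min sample of set 1. This was a rise of 1.54 ± 0.27 (SE) on the log2 scale (edgeR adjusted p = 0.0052), with values of 1.3 within set 1 and 1.5 within set 2. The ATPase gene Psmc3 (chromosome 2, 90894173 to 90899594) measured 144, 134 and 164 CPM at 45 min and 421, 369, 286 and 343 CPM at 405 min (log2 fold change 1.27 ± 0.21 (SE), edgeR adjusted p = 0.00291). Psmb2 measured 111, 79.3 and 126 CPM at 45 min and 336, 245, 171 and 253 CPM at 405 min (log2 fold change 1.25 ± 0.23 (SE), edgeR adjusted p = 0.00703), again with replicate 3 lowest among the late samples. Psmb3 and Psmc3 remained called in all 15 fits that left out 1 library, and Psmb2 in 14 (adjusted p = 0.0532 without replicate 2 at 45 min).

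**Figure D2:**
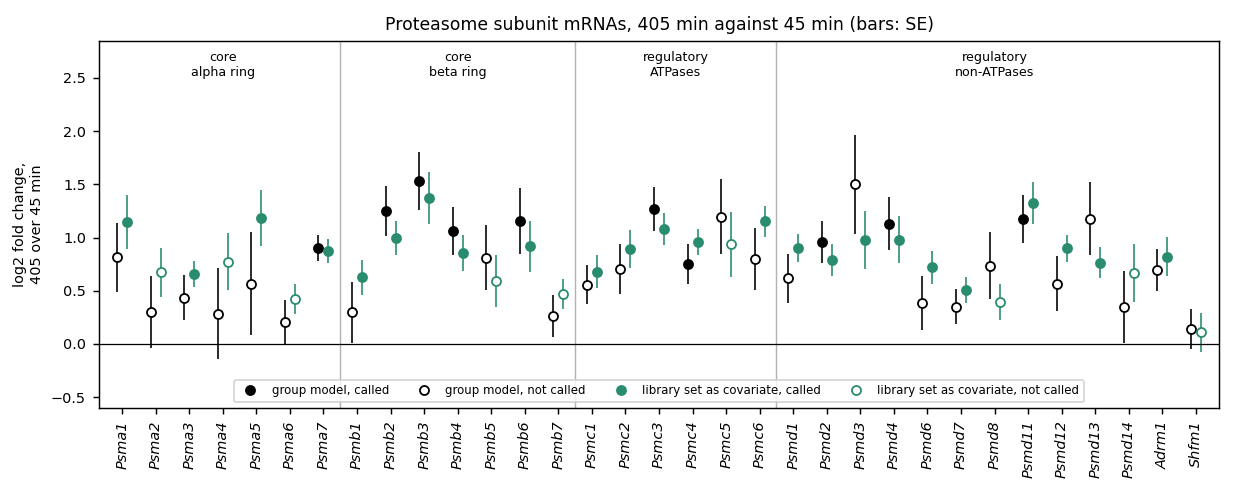
Log2 fold change (405 over 45 min) of the 33 proteasome subunit mRNAs, ordered by layer of the particle, with SE, in the group model (black) and with the library set as a covariate (green). Filled points passed an adjusted p of 0.05. All 33 estimates of the group model lie above 0, and the beta ring holds the largest, Psmb3 at 1.54.

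The genes that help to assemble or activate the proteasome differed less. Of 14 tested, only Psme4, which encodes the activator PA200, was called (log2 fold change 0.89 ± 0.17 (SE), edgeR adjusted p = 0.00653), with 227, 249.8 and 191 CPM at 45 min and 363, 435, 476 and 381 CPM at 405 min. The median of these 14 genes was 0.20. Of all genes tested 1.9% were called higher. Among the assembly chaperones none of 8 was called, with log2 fold changes from -0.59 for Psmg2 to 0.67 for Psmd9. With the set as a covariate Psmd5 (0.82, edgeR adjusted p = 0.00176) and Pomp (0.55, 0.0118) were higher.

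Of 23 tested genes that supply ubiquitin or deliver substrates to the proteasome, 8 were higher, against 1.9% of all genes, and none lower. The median log2 fold change was 0.63 (0.50 with the set as a covariate, where 12 passed, against 3.83% of all genes). Medians were 0.87 for p97 and adaptors, 0.07 for ubiquitin genes and 0.47 for shuttles and deubiquitinases. With the covariate these were 0.97, 0.40 and -0.01. The number called in the group model was 4 without replicate 1 at 45 min and 5 without replicate 2 at 45 min or without replicate 1, 2 or 4 at 405 min. Most of the 8 belonged to the subgroup listed as p97 and adaptors, with 5 of 10 genes called. They were Vcp, which encodes p97 itself (1.04), its ubiquitin-binding cofactor Nploc4 (1.31), Nsfl1c (0.95), Ubxn4 (0.98) and Zfand2a (1.72). The others were Ubb, the shuttle Ubqln1 (0.92) and the proteasome-bound deubiquitinase Usp14 (0.80).

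Zfand2a (chromosome 5, 139947171 to 139960445), an arsenite-inducible gene whose protein binds the proteasome, measured 56.3, 39.1 and 58.3 CPM at 45 min and 182, 186, 132 and 174 CPM at 405 min (log2 fold change 1.72 ± 0.21 (SE), edgeR adjusted p = 0.000626). Levels at 135 min were already 167, 149 and 172 CPM, in the range of the late samples. Nploc4 measured 107, 84.9 and 108 CPM at 45 min and 306, 270.3, 170.1 and 249 CPM at 405 min and had reached 142, 143 and 139.6 CPM at 135 min, between the early and late levels. Both kept the call without any 1 of the 15 libraries.

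Ubb, a polyubiquitin gene, measured 204, 155 and 248 CPM at 45 min and 427, 498, 345 and 441 CPM at 405 min (log2 fold change 1.08 ± 0.19 (SE), edgeR adjusted p = 0.00543). The call held without any 1 of the 15 libraries. Rps27a, in which ubiquitin is fused to a ribosomal protein, had a log2 fold change of -0.31 (edgeR adjusted p = 0.63). Ribosomal protein genes have many processed copies, and its counts are uncertain.

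Autophagy delivers aggregates and organelles to the lysosome. Of 32 genes of this pathway the median log2 fold change was 0.38, and 8 were higher with the set as a covariate (3.83% of all genes). In the group model 7 were higher, against 1.9% of all genes, and none lower. They comprised the ubiquitin-binding receptors Sqstm1 (2.06), Nbr1 (0.77) and Tax1bp1 (0.82), the ATG8 family gene Gabarapl1 (1.93), the initiating kinase Ulk1 (1.6) and the proton pump subunits Atp6v1a (1.04) and Atp6v1h (1.0). Sqstm1 (chromosome 11, 50013654 to 50024292), which encodes p62, measured 252, 167 and 483 CPM at 45 min and 1829, 1298, 615 and 1269 CPM at 405 min. The groups did not overlap, but the samples of set 2 were the highest in each group, and the log2 fold change of 2.06 ± 0.47 (SE, adjusted p = 0.0222) became 1.56 (adjusted p = 0.000303) with the set as a covariate. Gabarapl1 showed the same arrangement, with 27.5, 20.8 and 56.8 CPM at 45 min and 197, 138, 63 and 138 CPM at 405 min (adjusted p = 0.0406). The number of autophagy genes called was 3 without replicate 1 or 2 at 45 min or replicate 1 or 4 at 405 min and 4 without replicate 2 at 405 min. Gabarapl1 and Ulk1 lost the call in 10 fits each and Sqstm1 in 5 (replicates 1 and 2 at 45 min and replicates 1, 2 and 4 at 405 min). Their adjusted p reached 0.208, 0.211 and 0.125.

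NRF2 target genes had the largest share of called members of any list in the group model. Of 26 genes 12 were higher, against 1.9% of all genes, and none lower. With the set as a covariate 14 of them passed, against 3.83% of all genes, and the proteasome list had the larger share (24 of 33). All 26 NRF2 targets had positive log2 fold changes with a median of 1.08 (0.93 with the set as a covariate, 1.022 within set 1 and 0.93 within set 2). Their count in the group model ranged from 7, without replicate 1 or 2 at 45 min, to 16, without control replicate 2. It was 8 without replicate 2 at 405 min. The genes of the glutathione and thioredoxin systems accounted for 8 of the 12. These were both subunits of glutamate-cysteine ligase, Gclc (0.69) and Gclm (1.93), the cystine importer Slc7a11 (2.64), glutathione reductase Gsr (1.69), sulfiredoxin Srxn1 (1.93), Prdx1 (1.03) and the glutathione transferases Gsta4 (1.67) and Mgst1 (1.49). The remaining called members were Blvrb (1.81), Ephx1 (1.16) and, for NADPH supply, Taldo1 (1.95) and Me1 (1.0).

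Gclm (chromosome 3, 121948510 to 121969566), the modifier subunit of the rate-limiting enzyme of glutathione synthesis, measured 83.7, 71.9 and 71.2 CPM at 45 min and 273, 305, 291 and 287 CPM at 405 min (log2 fold change 1.93 ± 0.34 (SE), edgeR adjusted p = 0.00487). The late samples of both sets lay close together, and the call held without any 1 of the 15 libraries. Slc7a11 (chromosome 3, 50168858 to 50247535) measured 5.91, 11.6 and 13.4 CPM at 45 min and 72, 79.7, 50 and 54.3 CPM at 405 min, a rise of 2.64 ± 0.58 (SE) on the log2 scale (edgeR adjusted p = 0.0176), and lost the call without replicate 1 or 2 at 45 min or replicate 2 at 405 min (adjusted p up to 0.115). Srxn1 measured 64.6, 49.4 and 84.9 CPM at 45 min and 379, 273, 133 and 229 CPM at 405 min (log2 fold change 1.93 ± 0.44 (SE), edgeR adjusted p = 0.0215), with the early and late samples of set 2 the highest in their groups, and lost the call without replicate 1 or 2 at 45 min or replicate 1 or 2 at 405 min. Taldo1 measured 45.2, 38.8 and 82.8 CPM at 45 min and 305, 211, 117 and 227 CPM at 405 min (log2 fold change 1.95 ± 0.38 (SE), edgeR adjusted p = 0.00867) and lost it without replicate 1 or 2 at 45 min (up to 0.0639). Hmox1, the haem-degrading enzyme, did not pass. It measured 90.5, 85.6 and 120.4 CPM at 45 min and 287, 220.0, 110.2 and 172 CPM at 405 min (log2 fold change 1.0, adjusted p = 0.105), and replicate 3 at 405 min fell below the highest early sample. Its level at 135 min was higher, 485 CPM ± 46 (SD, n = 3). Osgin1 likewise did not pass (6.38, 6.11 and 10.1 CPM at 45 min and 31.5, 20.3, 10.9 and 20.7 CPM at 405 min, log2 fold change 1.47, adjusted p = 0.108).

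The core of the antioxidant response element, TGACNNNGC, through which NRF2 and NRF1 bind, was searched on both strands of RefSeq promoters (GRCm38.p6, 250 bases before to 50 after each start). It occurred in 12.4% of all 32851 promoters and in 14.4% of the promoters of tested genes. It was present in 10 of 30 promoters (33.3%) of the 21 NRF2 list genes that matched the table and in 6 of 29 (20.7%) of the 27 matched proteasome genes. To show where the match lies in genes that rose, a stretch of 100 bases that holds it and ends before the start is given for 4 of them, 5′ to 3′ on the gene's strand, with the match in capitals. For 3 of these the match reads on the opposite strand.
Psmb6, chr11:70525257-70525356 (+ strand): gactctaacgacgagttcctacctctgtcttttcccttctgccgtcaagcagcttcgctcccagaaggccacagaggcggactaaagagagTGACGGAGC
Gclm, chr3:122245373-122245472 (+ strand): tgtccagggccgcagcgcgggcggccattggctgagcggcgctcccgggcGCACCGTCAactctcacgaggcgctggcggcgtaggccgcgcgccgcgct
Mgst1, chr6:138140421-138140520 (+ strand): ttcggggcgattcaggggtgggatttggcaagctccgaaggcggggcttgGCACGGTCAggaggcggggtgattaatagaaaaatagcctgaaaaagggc
Prdx1, chr4:116685416-116685515 (+ strand): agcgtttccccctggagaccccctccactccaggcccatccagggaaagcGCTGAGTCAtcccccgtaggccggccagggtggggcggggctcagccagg
The match began 9 bases before the start in Psmb6, 134 in Gclm, 56 in Mgst1 and 133 in Prdx1. Psmb5, which was not called, held 1 as well, as did 4 other proteasome genes that were not called (Psmc6, Psmd12, Adrm1 and Shfm1). Psmb6 was the only called proteasome gene with a match. The called Psma7, Psmb3, Psmb4, Psmc4, Psmd2, Psmd4 and Psmd11 had none, and the called Psmb2 and Psmc3 were not matched. Among NRF2 list genes with a match, Txnrd1, Abcc4, G6pdx and Pgd were not called. The called Srxn1 and Me1 held a match after or across the start. The called Slc7a11, Taldo1, Blvrb and Ephx1 had none in the promoters searched. A match is a description of the sequence only.

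Heat shock genes rose in part. Of 24 tested, 6 were higher, against 1.9% of all genes, and none lower. The median was 0.51 (0.50 with the set as a covariate, where 10 passed, against 3.83% of all genes). The called genes were the constitutive HSP70 gene Hspa8 (0.95), the HSP110 gene Hsph1 (0.91), Hsp90ab1 (0.68), the HSP70 cochaperone Bag3 (1.5), and the small heat shock genes Hspb8 (1.17) and Cryab (0.87). The number was 3 without replicate 2 at 45 min, 4 without replicate 1 at 45 min or replicate 1 or 4 at 405 min and 9 without control replicate 3. Of the 5 HSP40 genes none was called, and Dnajb1 had a log2 fold change of 0.13 (adjusted p = 0.84).

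Bag3 (chromosome 7, 135667097 to 135690491) and Hspb8 encode partners in a complex that hands clients to autophagy. Bag3 measured 43.9, 39.2 and 56.1 CPM at 45 min and 173, 128, 97 and 129 CPM at 405 min (log2 fold change 1.5 ± 0.22 (SE), edgeR adjusted p = 0.00128). Hspb8 measured 52, 49.5 and 61.4 CPM at 45 min and 153, 111, 105 and 118 CPM at 405 min (log2 fold change 1.17 ± 0.19 (SE), edgeR adjusted p = 0.00256). Both kept the call without any 1 of the 15 libraries. Hsph1 measured 404, 385 and 367 CPM at 45 min and 644, 751, 771 and 738 CPM at 405 min (log2 fold change 0.91 ± 0.17 (SE), edgeR adjusted p = 0.00756), and its mean at 135 min, 823 CPM ± 48.5 (SD, n = 3), was above that at 405 min, 726 CPM ± 56.2 (SD, n = 4). Hspa1b, the stress-inducible HSP70 gene, was not called and its levels overlapped, at 17.3, 25.4 and 11.4 CPM at 45 min and 9.81, 14.1, 29.3 and 10.7 CPM at 405 min (log2 fold change -0.18 ± 0.48, adjusted p = 0.88, and 0.34 with the set as a covariate). At 135 min it measured 104, 127 and 135 CPM. Hspa1b and its neighbour Hspa1a are nearly identical and can share reads.

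The heat shock element core (GAA and, after any 2 bases, TTC, on either strand) was present in 13 of 28 promoters (46.4%) of the 21 matched heat shock genes, against 7.80% of all promoters and 5.72% of those of tested genes. It was found in 11 of these genes. Of them 2 rose (Hsph1 and Hspb8, with the element after the start), 7 were not called (Hspa1b, Fkbp4, Chordc1, Dnaja1, Dnajb6, Hspd1 and Hspe1) and 2 were not tested (Hspa1a and Hspb1). The called Bag3 had none in the promoter searched, and the called Hspa8, Hsp90ab1 and Cryab were not matched.

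The other chaperone systems gave few calls. None of the 8 tested subunit genes of the cytosolic chaperonin TRiC was called by edgeR (median -0.05), none was at an unadjusted p under 0.05, and DESeq2 called none. Of 23 genes of the endoplasmic reticulum stress response none was called by edgeR in the group model (median 0.32), while 8 had an unadjusted p under 0.05 and DESeq2 called 2. With the set as a covariate 4 were higher, namely the lumenal chaperone Hspa5 (0.67), Pdia3 (0.61), Dnajb9 (1.0) and Dnajc3 (0.49), and Herpud1 was lower (-1.21). Of all genes, that fit called 3.83% higher and 4.22% lower. Among all 10276 genes tested, 1764 had an unadjusted p under 0.05 in the group model, and DESeq2 called 400 higher and 437 lower. Hspa5 measured 348, 420.4 and 429 CPM at 45 min and 674, 587, 602 and 525 CPM at 405 min, without overlap (log2 fold change 0.58, adjusted p = 0.142 in the group model and 0.0405 with the covariate).

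Among 22 p53 target genes, 2 rose, Mdm2 and Fas, beside 1.9% of all genes tested, and none fell (median 0.36). In the covariate fit 3 were higher, with Ccng1 (1.03) in addition, beside 3.83% of all genes. That fit called 1 lower, Plk2 (-0.50), beside 4.22% of all genes, and the median was 0.22. Mdm2 (chromosome 10, 117125961 to 117147772), the ubiquitin ligase of p53, measured 218, 254 and 189 CPM at 45 min and 356, 426, 404 and 320.4 CPM at 405 min (log2 fold change 0.78 ± 0.20 (SE), edgeR adjusted p = 0.043). At 135 min it was far higher, 999 CPM ± 65.6 (SD, n = 3), so the late level lay between those at 45 and 135 min. The death receptor gene Fas measured 2.23, 0.964 and 2.15 CPM at 45 min and 5.87, 7.3, 9.27 and 6.32 CPM at 405 min (log2 fold change 1.97 ± 0.48 (SE), edgeR adjusted p = 0.0313) and 13, 18.3 and 16.2 CPM at 135 min. For Fas the transcript listed differed between the tables, which can shift its counts. Without 1 library the number called ranged from 0 to 3, and it was 0 without any 1 of the 7 compared samples or without replicate 3 at 135 min. The p21 gene Cdkn1a, a cell cycle inhibitor, was not called, with overlapping levels of 59.3, 48 and 98.5 CPM at 45 min and 124, 86.2, 60.3 and 96.1 CPM at 405 min (log2 fold change 0.42, adjusted p = 0.468).

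**Figure D3:**
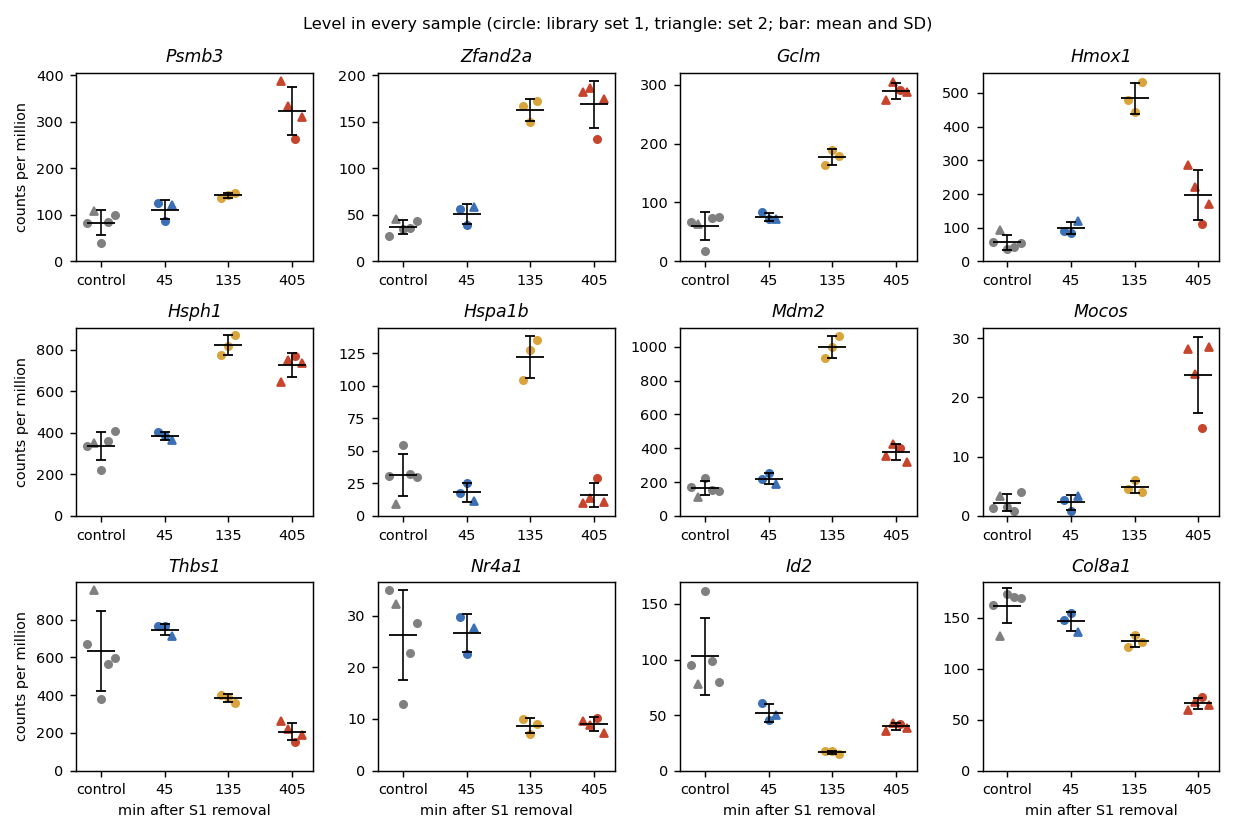
CPM of 12 transcripts in every sample of the series, by min after S1 removal (circles, library set 1, triangles, set 2, black bars, mean and SD). Between 45 and 405 min Psmb3, Gclm and Mocos climbed through 135 min, Zfand2a had reached its late level by 135 min, and Mdm2, Hsph1, Hmox1 and Hspa1b had higher means at 135 min than at 405 min. The 135-min levels are a description and all 135-min samples are in set 1.

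Of the named genes that rose, 30 of 35 had a mean at 135 min between those at 45 and 405 min, as had 24 of the 33 that fell. This is a description, since the 45- and 405-min means also chose these genes.

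The largest increases included genes outside these lists. By rule, the 12 called genes with the largest log2 fold change that also passed with the set as a covariate, did not overlap and had a mean count of at least 10 were Mocos, Phf1, Ndrg4, Mmp9, Slc7a11, Procr, Abhd4, BC028528, Rusc1, Prepl, Sqstm1 and Prkab2. Mocos, which encodes molybdenum cofactor sulfurase, measured 2.72, 0.857 and 3.34 CPM at 45 min and 28.2, 23.9, 14.8 and 28.6 CPM at 405 min (log2 fold change 3.33 ± 0.55 (SE), edgeR adjusted p = 0.00314). Its mean at 135 min was 4.89 CPM, nearer to the early than to the late level. Ndrg4 (chromosome 8, 98226963 to 98238856) measured 4.22, 4.82 and 7.34 CPM at 45 min and 41.2, 34.3, 37.7 and 36.6 CPM at 405 min (log2 fold change 2.78 ± 0.37 (SE), edgeR adjusted p = 0.000805). Procr (chromosome 2, 155576953 to 155581213), the endothelial protein C receptor, measured 7.14, 3.75 and 10.3 CPM at 45 min and 55.8, 46.2, 23.4 and 41.5 CPM at 405 min (log2 fold change 2.55 ± 0.35 (SE), edgeR adjusted p = 0.00101). Prkab2, a regulatory subunit of AMP-activated protein kinase, measured 3.22, 5.68 and 4.47 CPM at 45 min and 22.3, 19, 15.7 and 14.8 CPM at 405 min (log2 fold change 2.02 ± 0.29 (SE), edgeR adjusted p = 0.00116). The fitted fold of the 4 genes ranged from 4.07 for Prkab2 to 10.1 for Mocos.

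Prepl (chromosome 17, 85462819 to 85489614), a prolyl endopeptidase-like gene, had the lowest adjusted p of the 12, with 15.4, 19 and 22.8 CPM at 45 min and 76.3, 85.9, 92.4 and 77.9 CPM at 405 min (log2 fold change 2.124 ± 0.19 (SE), edgeR adjusted p = 4.8e-05). Its listed transcript differed between tables. Phf1, a Polycomb-associated gene, measured 2.33, 0.857 and 6.86 CPM at 45 min and 32.1, 20.5, 11.2 and 30 CPM at 405 min and Rusc1 1.56, 0.964 and 2.56 CPM at 45 min and 13.9, 8.87, 3.48 and 10.1 CPM at 405 min. Both had late samples of set 2 well above the one of set 1, and their means at 135 min (2.09 and 0.881 CPM) were not above those at 45 min. Mmp9, a matrix metalloprotease, measured 1.63, 0.536 and 1.19 CPM at 45 min and 9.26, 9.88, 5.31 and 5.66 CPM at 405 min (adjusted p = 0.0489) and lost the call in 10 of the 15 fits without 1 library. Mocos, Ndrg4, Procr, BC028528, Prepl and Prkab2 kept it in all 15.

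**Figure D4:**
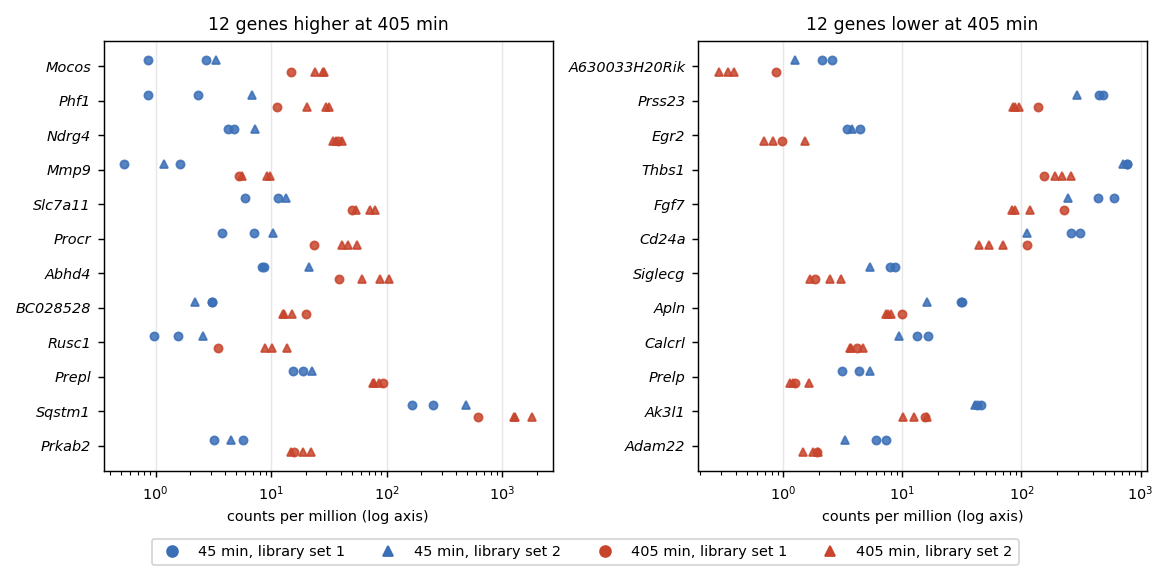
CPM (log axis) in each of the 7 samples for the 12 higher and 12 lower genes with the largest changes, 45 min in blue and 405 min in red, circles for library set 1 and triangles for set 2. By the rule that chose them no 45-min point overlaps a 405-min point of the same gene.

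The 12 genes with the largest decreases by the same rule were A630033H20Rik, Prss23, Egr2, Thbs1, Fgf7, Cd24a, Siglecg, Apln, Calcrl, Prelp, Ak3l1 and Adam22. Thbs1 (chromosome 2, 117937658 to 117952869), thrombospondin 1, an abundant matrix glycoprotein, measured 765, 765 and 713 CPM at 45 min and 260.1, 219, 153 and 191 CPM at 405 min (log2 fold change -1.86 ± 0.24 (SE), edgeR adjusted p = 0.000805). It stood at 402, 390.3 and 360.4 CPM at 135 min. Prss23 (chromosome 7, 96656295 to 96666096), a secreted serine protease, measured 448, 484 and 294 CPM at 45 min and 85.2, 95.9, 139 and 87.5 CPM at 405 min (log2 fold change -2.01 ± 0.25 (SE), edgeR adjusted p = 0.000626). Apln, the peptide ligand apelin, measured 32, 31 and 16 CPM at 45 min and 7.6, 8.02, 9.85 and 7.26 CPM at 405 min (log2 fold change -1.69 ± 0.23 (SE), edgeR adjusted p = 0.00104). Ak3l1, a mitochondrial adenylate kinase that responds to hypoxia, measured 42.6, 46 and 40.5 CPM at 45 min and 12.4, 16, 15.5 and 10.1 CPM at 405 min (log2 fold change -1.67 ± 0.24 (SE), edgeR adjusted p = 0.00128) and had not fallen at 135 min (49.8 CPM on average).

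Thbs1, Prss23, Apln, Ak3l1 and Calcrl kept the call without any 1 of the 15 libraries. A630033H20Rik, Adam22, Egr2 and Prelp were weakly expressed, with at most 7.29 CPM in any of the 7 samples, and the listed transcript of A630033H20Rik and Adam22 differed between tables. Cd24a measured 261, 309 and 112 CPM at 45 min and 44.4, 69.6, 111 and 53.6 CPM at 405 min, with the highest late value (replicate 3, set 1) next to the lowest early value (replicate 3, set 2), and lost the call in 5 of the 15 fits (adjusted p up to 0.107).

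Of 41 genes of the extracellular matrix 7 fell, against 2.27% of all genes, 1 rose (Mmp9) and 33 did not pass, 12 of the 41 having positive log2 fold changes. The median was -0.22 in the group model and -0.49 with the set as a covariate, where 13 fell, against 4.22% of all genes. The falling genes were the collagens Col3a1 (-0.89), Col8a1 (-1.15) and Col11a1 (-1.04), the crosslinking enzyme Lox (-0.82), the protease inhibitor Timp3 (-1.08), the aggrecanase Adamts5 (-1.58) and the plasminogen activator Plau (-1.23). Col1a1 (-0.13, adjusted p = 0.816) and Fn1 (-0.16, 0.702) did not pass. Adamts5 (chromosome 16, 85858402 to 85901370) had the lowest adjusted p of the falling genes named here, with 147, 178 and 149 CPM at 45 min and 51.3, 53, 55.4 and 51.3 CPM at 405 min (log2 fold change -1.58 ± 0.15 (SE), edgeR adjusted p = 4.8e-05). Col8a1 (chromosome 16, 57624369 to 57754850) measured 148, 154 and 136 CPM at 45 min and 59.8, 67.5, 72.5 and 63.8 CPM at 405 min (log2 fold change -1.15 ± 0.13 (SE), edgeR adjusted p = 0.000349). For both the late samples lay within a narrow range well below the early ones, in either library set. Without 1 library the number of falling matrix genes stayed between 5 and 9. Col3a1 is also among the 8 fibroblast markers. In these bulk samples fewer cells of a type and less mRNA per cell cannot be told apart.

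Of 18 growth factor and receptor genes the median log2 fold change was -0.67, and 8 were lower with the set as a covariate (4.22% of all genes). In the group model 6 fell, against 2.27% of all genes, none rose and 12 did not pass. Those that fell were the receptors Egfr (-1.0), Igf1r (-0.65) and Ghr (-1.020) and the ligands Fgf7 (-1.74), Hbegf (-1.19) and Ereg (-0.91). The growth hormone receptor gene Ghr measured 67.7, 69.1 and 51.5 CPM at 45 min and 28.8, 30.2, 38.9 and 26 CPM at 405 min (log2 fold change -1.020 ± 0.17 (SE), edgeR adjusted p = 0.00354) and kept the call without any 1 library, although its listed transcript differed between tables. Fgf7 (chromosome 2, 125860394 to 125916921) measured 442, 599 and 248 CPM at 45 min and 83, 119, 226 and 88.4 CPM at 405 min and lost the call in 11 of 15 fits (adjusted p up to 0.199). The number of the list called was 1 without replicate 2 at 45 min or replicate 4 at 405 min, 3 without replicate 1 at 45 min, replicate 1 or 2 at 405 min or any 1 sample at 135 min, and 4 without control replicate 1 or 5. Igf1, whose listed transcript differed between tables, measured 8.34, 1.93 and 2.03 CPM at 45 min and 0.76, 0.954, 1.26 and 1.37 CPM at 405 min and was not called (-1.94, adjusted p = 0.22).

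Of 21 targets of BMP, Notch and TGF-beta signalling only Thbs1 fell in the group model (median -0.40), beside 2.27% of all genes tested. With the set as a covariate 7 of 10 TGF-beta and YAP targets were lower, including Ctgf (-0.85) and Ankrd1 (-0.58), beside 4.22% of all genes. None of the BMP or Notch genes passed in either fit. Id2, a BMP target, measured 60.6, 45.2 and 49.9 CPM at 45 min and 35.9, 42.7, 41.8 and 38.6 CPM at 405 min, all late samples being below the early ones (log2 fold change -0.39, adjusted p = 0.405), and was lower still at 135 min, 16.5 CPM ± 1.47 (SD, n = 3). Hes1, a Notch target, measured 5.62, 6.96 and 5.9 CPM at 45 min and 4.42, 4.53, 6.76 and 5.44 CPM at 405 min, with overlapping levels (-0.22, adjusted p = 0.736).

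Genes of the actin cytoskeleton fell in 4 of 20 cases, Tpm1 (-0.86), Tpm4 (-0.85), Actn1 (-0.61) and Actg1 (-0.55), with none rising (median -0.15, and -0.46 with the covariate, where 6 fell). Of all genes tested 2.27% fell, and 4.22% with the covariate. Tpm1, which encodes a tropomyosin that lines actin filaments, measured 657, 674 and 709.8 CPM at 45 min and 308, 359.9, 462 and 366 CPM at 405 min (log2 fold change -0.86 ± 0.14 (SE), edgeR adjusted p = 0.0032) and kept its call without any 1 library. The number called was 1 without replicate 1 or 2 at 45 min or replicate 1, 2 or 4 at 405 min, and 2 without replicate 3 at 45 min or any 1 sample at 135 min. By contrast 2 of 11 tubulin genes rose and none fell, Tuba4a with 30.9, 28.4 and 33 CPM at 45 min and 123, 82.6, 60.7 and 83.8 CPM at 405 min (adjusted p = 0.047) and Tubb2a with 41, 40.5 and 44.1 CPM at 45 min and 83.3, 70.9, 81.6 and 72.4 CPM at 405 min (adjusted p = 0.00867). Neither was called without replicate 1 or 2 at 45 min, and Tuba4a lost the call in 11 of the 15 fits. The tubulin median of 0.33 was -0.00 with the covariate. Of all genes tested 1.9% rose in the group model.

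Among immediate-early genes and feedback genes of MAPK signalling, 3 of 26 fell, Egr2 (-1.93), Nr4a1 (-1.57) and Ier2 (-0.99), beside 2.27% of all genes tested. Nr4a1 (chromosome 15, 101097277 to 101105223), an orphan nuclear receptor gene, measured 29.7, 22.6 and 27.6 CPM at 45 min and 9.61, 8.83, 10.2 and 7.26 CPM at 405 min (log2 fold change -1.57 ± 0.28 (SE), edgeR adjusted p = 0.00558) and had been at 10, 7.05 and 9.05 CPM at 135 min, which overlaps the late range. Egr1 was not called in the group model (-1.35, adjusted p = 0.188) but was with the set as a covariate (-1.73, adjusted p = 0.00713). It measured 56.6, 44 and 121 CPM at 45 min and 36.4, 20.9, 21 and 38 CPM at 405 min, and the early sample of set 2 was the highest. With the covariate 5 genes of the list were lower, Egr1 among them, beside 4.22% of all genes. In that fit 2 were higher, Dusp1 (0.84) and Ier3 (1.46), beside 3.83% of all genes. In the group model the number falling was 1 without any 1 of the 3 samples at 45 min or replicate 1, 2 or 4 at 405 min. It was also 1 without replicate 3 at 135 min, and it was 5 without control replicate 3.

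The called genes of sterol and fatty acid synthesis and of glycolysis and hypoxia all fell, while members that were not called went both ways. Of 32 genes of sterol and fatty acid synthesis 10 had positive log2 fold changes, and the median was -0.23. In the group model 5 fell, against 2.27% of all genes, and none rose. These were Elovl6, a fatty acid elongase (-0.74), and the sterol genes Sc5d (-0.72), Sc4mol (-0.66), Cyp51 (-0.66) and Stard4 (-0.57). With the covariate 13 fell, against 4.22% of all genes. The number was 1 without replicate 1 or 2 at 45 min or replicate 1 or 4 at 405 min, 2 without replicate 3 at 405 min or replicate 1 or 3 at 135 min, and 3 without replicate 3 at 45 min, replicate 2 at 135 min or control replicate 1 or 5. Elovl6 measured 180.1, 172 and 198 CPM at 45 min and 114, 116, 105 and 105 CPM at 405 min (log2 fold change -0.74 ± 0.12 (SE), edgeR adjusted p = 0.00258), and kept its call without any 1 of the 15 libraries. Of 23 genes of glycolysis and the hypoxia response, 12 had positive log2 fold changes (median 0.07). Pdk1 (-1.2) and Ldha (-0.65) fell, beside 2.27% of all genes, and 4 fell with the set as a covariate, beside 4.22%. Ldha is a gene with many processed copies. Pdk1, a kinase that limits pyruvate entry into mitochondria, measured 15.3, 19.1 and 27.1 CPM at 45 min and 9.54, 7.44, 9.56 and 9.18 CPM at 405 min and kept its call without any 1 library, while Ldha lost it in 11 of the 15 fits. Without control replicate 2 or 3 the list had 4 or 5 falling genes.

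In the integrated stress response ATF4 raises amino acid supply genes. No gene of this list was called higher in the group model, beside 1.9% of all genes, and 10 had positive log2 fold changes. DESeq2 and a fit with a GC offset each called 1 higher, beside 400 and 373 of all genes. Of 37 genes 3 fell, Chac1 (-1.2), Tars (-0.53) and Atf4 itself (-0.49), against 2.27% of all genes. The covariate fit called 7 lower, beside 4.22% of all genes, the others being Asns, Slc7a5, Slc7a1 and Yars. Atf4 measured 457, 416 and 440.0 CPM at 45 min and 287, 328, 316 and 311 CPM at 405 min (log2 fold change -0.49 ± 0.12 (SE), edgeR adjusted p = 0.0262). Ddit3, which encodes CHOP, was not called, at 35.8, 28.6 and 63 CPM at 45 min and 29.1, 28.6, 30 and 38.4 CPM at 405 min (-0.43, adjusted p = 0.603). The number of falling genes of this list was 0 without any 1 sample at 45 min or replicate 2 at 405 min, 1 without another sample at 405 min, replicate 1 or 2 at 135 min or control replicate 1 or 4, and 5 without control replicate 3.

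The remaining lists gave few calls. In ribosome biogenesis 1 of 28 genes fell, the RNA polymerase I factor Ubtf (-0.79), beside 2.27% of all genes tested. With the set as a covariate 2 fell, beside 4.22%. Among cytokine and NF-kB genes 2 of 15 fell, Cxcl12 (-0.85) and Vcam1 (-0.49), beside the same 2.27%. The covariate fit called 3 lower, beside 4.22% of all genes, and 1 higher, the chemokine gene Ccl2, beside 3.83%. Ccl2 measured 118 CPM ± 24.4 (SD, n = 3) at 45 min and 280.3 CPM ± 30.7 (SD, n = 4) at 405 min without overlap, and its log2 fold change of 1.25 (edgeR adjusted p = 0.0852) was the largest of the list (1.55, adjusted p = 0.00983 with the covariate). Ubtf, Cxcl12 and Vcam1 kept the call in 4, 3 and 2 of the 15 fits without 1 library. Of 237 zinc finger genes named Zfp with a number, 6 rose, beside 1.9% of all genes tested, and 14 were higher with the set as a covariate, where all genes gave 3.83%. None was called without replicate 1 at 45 min. No gene was called by edgeR in the group model among 76 cytosolic ribosomal protein genes (median -0.12), 71 mitochondrial ribosomal protein genes (-0.00), 73 respiratory chain genes (-0.05), 34 DNA replication genes (-0.06), 31 mitosis genes (-0.16), 14 clock genes (-0.02) and 5 metal response genes (0.04). At an unadjusted p under 0.05 these lists held, in that order, 1, 5, 3, 2, 2, 3 and 0 genes, and DESeq2 called 1, 1, 0, 0, 1, 1 and 0. Among all 10276 genes tested, 1764 had an unadjusted p under 0.05, and DESeq2 called 400 higher and 437 lower. The medians of the replication genes were -0.38 within set 1 and 0.24 within set 2, and those of the mitosis genes 0.35 and -0.39. Each of these medians turns on 1 library on one side.

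Within set 1 the 405-min group has 1 sample and within set 2 the 45-min group has 1, and with 1 mean per group and set 78 genes were higher and 54 lower within set 1 and 66 and 81 within set 2. All 195 higher genes had positive and all 233 lower genes negative log2 fold changes in each set. The same samples made the calls, so this agreement is a description. A test of whether the difference itself differed between the sets called 0 genes (edgeR, 0.0%, lowest adjusted p 0.9998), with 206 genes at an unadjusted p under 0.05. RLE size factors and another filter on low counts also gave 0.

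**Figure D5:**
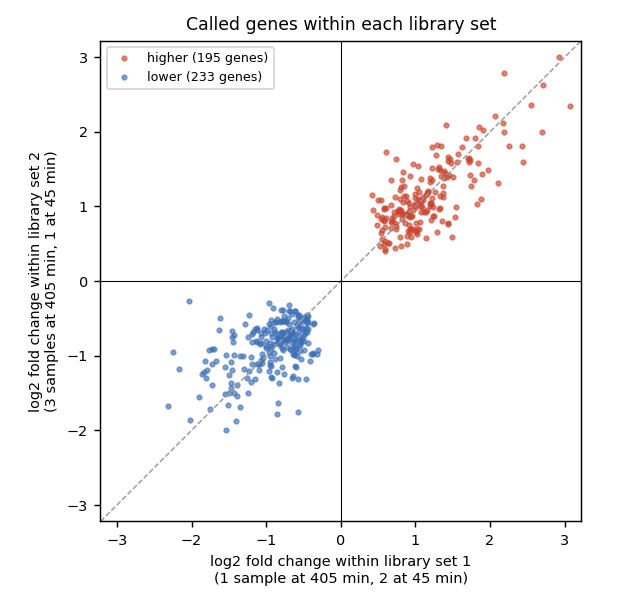
Log2 fold change (405 over 45 min) of the 428 called genes within library set 1 (x axis, 1 late and 2 early samples) and within set 2 (y axis, 3 late and 1 early samples), higher genes in red and lower in blue. All points lie in the upper right or lower left quadrant, and the dashed line marks equal values.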

How the data were processed

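Poly(A) RNA from 15 samples was sequenced. The authors used DNAnexus to align reads to mm9 and to count them over RefSeq transcripts; the aligner, its version and the use of strand are not given in the sources used here. The deposited count column held expected counts (8.71% to 15.6% of genes per sample were not whole), which were rounded. The design assumed whole counts, and the test was kept. The authors also deposited RPKM values, a score (Z score of the RPKM) and a ratio of RPKM to its root mean square, none of which was tested. Each table lists 1 transcript per gene. For 955 of 20207 genes that transcript differed among the 7 compared tables, by coordinates or by an implied length ratio above 1.02, which shifts the counts; 567 tested and 22 called genes were affected.

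Counts were analysed with edgeR 4.0.16 (R 4.3.3). A gene was tested if no sample had a count below 1 (10276 genes). With TMM factors, a quasi-likelihood model of the 4 groups was fitted to all 15 samples. The contrast was 405 min minus 45 min, with Benjamini-Hochberg adjustment over all tested genes and a threshold of 0.05. SE is the log2 fold change over the square root of F. CPM are scaled to TMM-adjusted library sizes. Library sets were split at the widest gap between the slopes of log2 CPM on exonic GC content (NCBIM37, GENCODE vM1). DESeq2 1.42.0, RLE factors, other filters, a GC offset, a replicate block and the omission of each library were alternatives, and the code was tested on simulated data. Sampling alone gives an error of 31.6% at 10 counts and 3.16% at 1000, and these cover counting error only, while SE and SD hold the spread between samples.

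Named genes were the 12 with the largest change in each direction that passed in both fits without overlap and with a mean count of at least 10, up to 3 per list and direction, and 19 fixed genes. The members, lists and rules were chosen with earlier results of these data known. Replicates are separate samples by label, and nothing says that they came from separate cultures, so p-values measure the spread between these samples. No pair agreed within sampling noise (chi-square per degree of freedom of at least 19.8 within the compared groups). Coordinates of genes are those of the deposited tables (mm9). Some list members are not reported here by name.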

Additional observations from a re-analysis of the deposited data

Results flagged for a closer look

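Of 79 genes whose 4 values at 405 min were examined, 3 had 1 sample far from the other 3 by Dixon's criterion, and chance flags about 1 in 20. Ier2, an immediate-early gene, was low in replicate 2 (7.20 CPM, the others between 8.89 and 9.13 CPM). A630033H20Rik was high in replicate 3 (0.869 CPM, the others at most 0.385 CPM). Ddit3 was high in replicate 4 (38.4 CPM, the others between 28.6 and 30.0 CPM). Each fell in a different library.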

How the results depend on the processing

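The 428 called genes kept their direction under every alternative that tested them, and the number called depended on the setting. In counts higher and lower than at 45 min, DESeq2 gave 400 and 437, a GC offset 373 and 387, no filter on low counts 119 and 103, the 7 compared samples alone 179 and 119, and set 1 or set 2 alone 78 and 54 or 66 and 81. With the library set as a covariate the counts were 394 and 434, and 671 and 635 with only the 7 samples. Alternatives chosen after seeing the data were the 7 samples with the set, the GC slope as a numeric covariate (734 and 854), the block with the GC offset and the omission of genes whose listed transcript differed. Leaving out 1 library gave 76 to 353 and 73 to 426, and with the set as a covariate 182 to 372 and 189 to 385 (325 and 301 higher without replicate 2 or 4 at 405 min). The replicate block gave 70 and 55, with the set 329 and 330 and with the GC offset 187 and 162. The labels tie same-numbered samples by number only. Their deviations correlated at -0.71 to -0.09 over the 3 pairs, but each pair joins the 2 library sets, so this cannot show whether they are paired. The cause of these shifts was not tested.

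Of 68 named called genes, 28 kept the call without any 1 of the 15 libraries, 44 in all 7 fits with the set as a covariate, 62 with the GC offset and 68 with DESeq2, but 45 with only the 7 samples, 40 with no filter, 24 with the replicate block and 21 and 27 within set 1 and set 2. Without 45-min replicates 1 to 3, 38, 40 and 17 of them lost it, and without 405-min replicates 1 to 4, 31, 33, 13 and 31. Only Hspa1b and Hes1, which were not called, changed sign. Hspa1b was 0.34 with the set as a covariate (0.40, 0.24, 0.39, 0.37, 0.16, 0.37 and 0.73 without 405-min replicates 1 to 4 and 45-min replicates 1 to 3), 0.40 with the block and set, 0.24 with the 7 samples and set, 0.20 with the GC slope, 0.46 within set 1, 0.024 within set 2 and from -0.63 (without replicate 3 at 405 min) to 0.14 (without replicate 2 at 45 min) without 1 library. Hes1 was 0.11 within set 1. Counts limit weakly expressed genes, where 10 counts carry an error of 31.6%.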
